A study of Rattus norvegicus with 36 samples.

Results

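Nr3c1, Nr3c2, Fkbp5 and Sgk1, the receptors for glucocorticoid hormones and a pair of genes that glucocorticoids induce, were measured in tissue of the medial prefrontal cortex (here PFC) and of the nucleus accumbens (here NAc) from Sprague Dawley rats, spelled Sparague Dawley in the labels. The 4 genes were taken by Ensembl identifier (ENSRNOG00000014096, ENSRNOG00000034007, ENSRNOG00000022523 and ENSRNOG00000011815) from 32623 identifiers in each deposited count file. The files hold identifiers without symbols, so the pairing of these 4 identifiers with their symbols is the one given with the choice of genes. The rats had learned a touch-screen gambling task in which light cues were tied to rewards and punishments of different size and probability, and were classified by their settled choices as risk-seeking or risk-averse. The groups were 9 PFC libraries of risk-seeking rats, 9 PFC libraries of risk-averse rats, 9 NAc libraries of risk-seeking rats and 9 NAc libraries of risk-averse rats, from 10 risk-seeking and 9 risk-averse animals. Both regions were available for 17 rats, while rat N9 gave only NAc and rat R6 only PFC. All of these rats were trained in the task, preference was observed and not assigned, and no untrained group was analysed here. The sources used here do not give age, sex, the time of day of collection or hormone levels.

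The glucocorticoid receptor (Nr3c1) and the mineralocorticoid receptor (Nr3c2) are hormone-activated transcription factors that both bind corticosterone, the main glucocorticoid of the rat. The mineralocorticoid receptor binds it with the higher affinity and is largely occupied at resting hormone levels, whereas the glucocorticoid receptor is engaged further at daily peaks and under stress. Fkbp5 encodes a co-chaperone of the receptor complex that is induced by glucocorticoids and lowers the receptor's affinity for hormone, which closes a feedback loop within the cell. Sgk1 encodes a serine/threonine kinase that is induced by both receptors, among other stimuli, and acts on ion channels and transporters.

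The start regions of the hormone-induced genes are shown because the results between rats turn on these genes. In the RefSeq windows on GRCr8, 300 bases long and reaching across a transcript start, Fkbp5 matched 1 window, Sgk1 3, Nr3c1 2 and Nr3c2 0. Printed 5′ to 3′ on the minus strand are the Fkbp5 window (chr20:6543506-6543805) and an Sgk1 window (chr1:24804782-24805081), where capitals mark TATAAA.
Fkbp5: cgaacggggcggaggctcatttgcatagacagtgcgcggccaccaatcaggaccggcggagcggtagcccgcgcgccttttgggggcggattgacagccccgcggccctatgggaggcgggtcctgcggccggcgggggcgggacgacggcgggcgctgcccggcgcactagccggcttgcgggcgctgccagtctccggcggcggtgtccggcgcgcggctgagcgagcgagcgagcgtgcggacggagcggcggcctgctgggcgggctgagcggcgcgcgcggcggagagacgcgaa
Sgk1: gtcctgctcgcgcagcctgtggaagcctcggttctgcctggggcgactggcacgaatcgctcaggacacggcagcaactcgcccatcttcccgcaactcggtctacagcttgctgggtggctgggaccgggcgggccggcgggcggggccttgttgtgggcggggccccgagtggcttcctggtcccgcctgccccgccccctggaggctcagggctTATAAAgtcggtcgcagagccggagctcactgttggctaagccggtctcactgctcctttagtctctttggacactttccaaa
The Fkbp5 window was 77% G and C and this Sgk1 window 66%. The TATAAA of this Sgk1 window began 33 bases before its start. Of the other Sgk1 windows, 1 held TATAAA on the printed strand, 55 bases before its start, and 1 held none. These letters occur on the printed strand in 8.8% of 33469 windows. The receptor-binding hexamer AGAACA, searched on both strands, was in none of the 6 windows and is in 20.7% of all windows. The palindrome made of AGAACA and its reverse complement TGTTCT with any 3 bases between them, which holds that hexamer on each strand, was in none of the 6 and is in 0.0149% of all. These counts describe the letters in these windows alone.

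Counts assigned to genes ranged from 18436025 to 34761269 per library. Each of the 4 genes passed the filter on low counts, and the lowest count of any was 378 (Nr3c2 in PFC), so counting error, as the inverse square root of the count, was at most 5.14%. Levels are given as CPM, each gene's reads relative to the TMM-scaled size of its library, and are not divided by transcript length; they are compared between samples and not between genes. A read category moved with preference: the share of reads that HTSeq gave to no annotated gene was 23.3% ± 0.666 in PFC of risk-seeking rats and 25% ± 1.98 in PFC of risk-averse rats (SD, n = 9 each), and 25.7% ± 1.02 in NAc of risk-seeking rats and 27.6% ± 2.61 in NAc of risk-averse rats. The share ambiguous between genes was 0.719% ± 0.0331 in PFC of risk-seeking rats and 0.655% ± 0.0417 in PFC of risk-averse rats, and 0.741% ± 0.0238 and 0.69% ± 0.0369 in NAc of risk-seeking and of risk-averse rats. The share of reads aligned to several places was 13.5% ± 0.185 in PFC of risk-seeking rats and 12.9% ± 0.535 in PFC of risk-averse rats. In NAc it was 12.8% ± 0.206 and 12.5% ± 0.391. The part of these shares in the preference results below was not tested, beyond the fits that carried the unassigned or the ambiguous share as a covariate. Markers of the dissected tissue and of its cell types could not be checked, because no source used here pairs the identifiers with symbols. Tissue was bulk, so fewer cells of a type and less RNA per cell cannot be told apart. The libraries of a group came from separate rats.

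Nr3c1 was the steadiest of the 4 genes. In PFC it had a lowest, median and highest level of 88.91, 94.12 and 106 CPM in risk-seeking rats, against 83.55, 94.23 and 100.9 CPM in risk-averse rats. In NAc the same values were 82.08, 91.37 and 97.08 CPM in risk-seeking rats, against 77.35, 91.55 and 96.57 CPM in risk-averse rats. All 4 groups overlapped, and their means, from 90.05 ± 6.69 to 96.14 ± 5.61 CPM (SD, n = 9), lay within their spread. The lowest value in each region belonged to the same risk-averse animal, rat R4.

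Nr3c2 was lower in PFC than in NAc in every rat. Its lowest, median and highest levels in PFC were 16.07, 16.7 and 19.4 CPM in risk-seeking rats, against 15.53, 19.05 and 21.84 CPM in risk-averse rats. In NAc they were 23.04, 29.76 and 35.13 CPM in risk-seeking rats, against 22.78, 32.15 and 38.59 CPM in risk-averse rats. The highest PFC library lay below the lowest NAc library, while the preference groups overlapped within each region. In order of mean level the groups were NAc of risk-averse, NAc of risk-seeking, PFC of risk-averse and PFC of risk-seeking rats. In NAc the step, from 29.53 ± 3.7 CPM in risk-seeking to 31.34 ± 5.09 CPM in risk-averse rats (SD, n = 9 each), was smaller than either SD. In PFC the step, from 17.2 ± 1.19 CPM in risk-seeking to 18.99 ± 2.38 CPM in risk-averse rats, exceeded only the risk-seeking SD.

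Fkbp5 was also lower in PFC, with a single animal far above its group in both regions. In PFC the lowest, median and highest levels were 39.8, 46.86 and 58.68 CPM in risk-seeking rats, against 36.48, 43.26 and 84.54 CPM in risk-averse rats. In NAc they were 76.15, 82.27 and 99.61 CPM in risk-seeking rats, against 69.75, 76.49 and 121.8 CPM in risk-averse rats. The highest risk-averse value in each region was rat R4. In PFC the mean was 47.76 ± 5.57 CPM in risk-seeking rats (SD, n = 9), against 47.21 ± 14.5 CPM in all risk-averse rats (n = 9) and 42.54 ± 4.01 CPM in those other than rat R4 (n = 8). In NAc it was 85.46 ± 7.67 CPM in risk-seeking rats, against 80.84 ± 16.1 CPM in all risk-averse rats and 75.72 ± 5.12 CPM in those other than rat R4. The regions overlapped only through rat R4's PFC library. By mean level the NAc groups stood above the PFC groups, and within a region the preference groups did not differ beyond their spread.

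Sgk1 varied most between rats. In PFC the lowest, median and highest levels were 40.93, 51.07 and 71.14 CPM in risk-seeking rats, against 43.32, 59.14 and 84.63 CPM in risk-averse rats. In NAc they were 65.9, 96.96 and 297.7 CPM in risk-seeking rats, against 78.91, 143.5 and 217.9 CPM in risk-averse rats. The mean was 55.47 ± 10.8 CPM in PFC of risk-seeking and 59.65 ± 12.1 CPM in PFC of risk-averse rats, and 126.8 ± 76.2 CPM in NAc of risk-seeking and 149.4 ± 53.3 CPM in NAc of risk-averse rats (SD, n = 9 each). The preference groups overlapped in each region, and the regions overlapped too. The standard deviation between rats on the log2 scale, with preference means removed, was 0.282 in PFC and 0.664 in NAc, and 4.01% and 0.437% of the 10061 genes of at least 10 CPM varied as much. Fkbp5 had 0.277 in PFC and 0.196 in NAc. Nr3c2 had 0.147 in PFC and 0.216 in NAc, and Nr3c1 0.081 in PFC and 0.0969 in NAc, where the median gene had 0.134 over both regions.

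**Figure D1:**
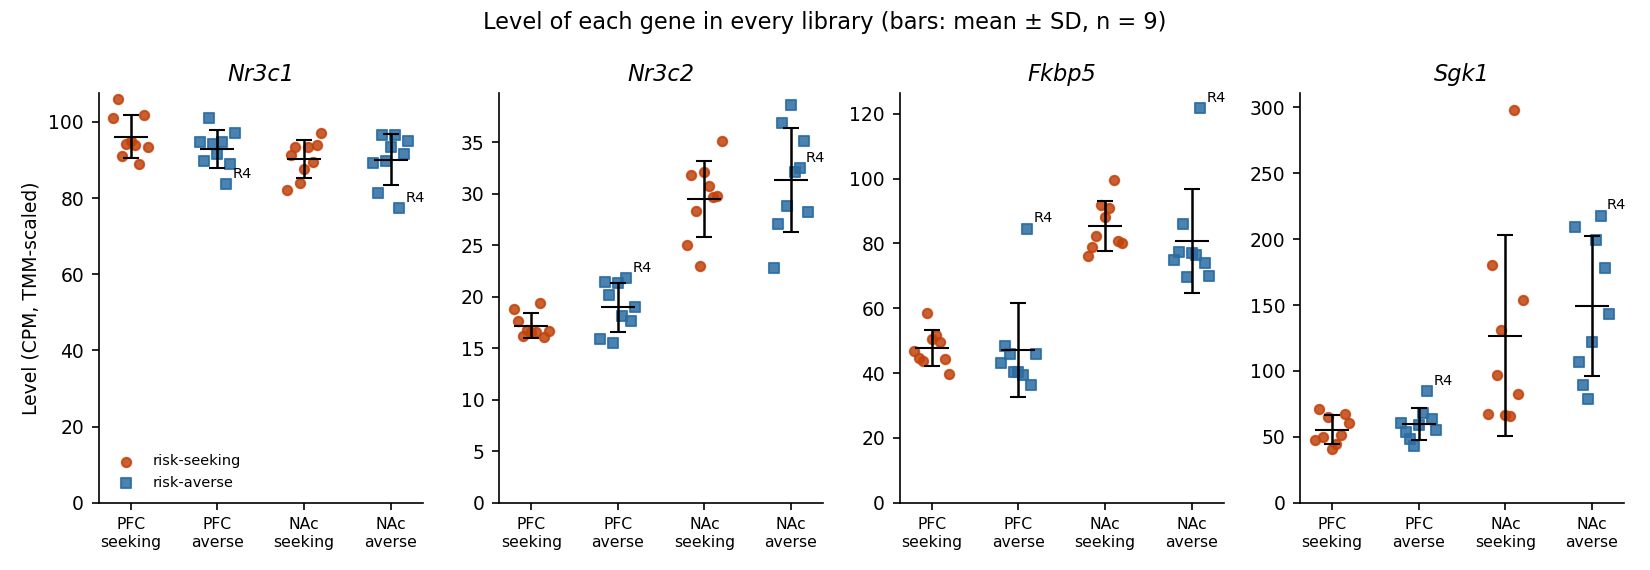
Level of each gene in CPM (vertical axis, from 0) in every library of the 4 groups (horizontal axis), with bars for the mean and SD of 9 libraries. Fkbp5 of the risk-averse rat R4 stands at 84.54 CPM in PFC and 121.8 CPM in NAc, and Sgk1 in NAc spreads from 65.9 to 297.7 CPM.

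The region comparison asked how the hormone-response genes differ between PFC and NAc. The main fit, edgeR's quasi-likelihood test with Benjamini-Hochberg adjustment, treated libraries of the same rat as independent. In that fit 3 of the 4 genes were lower in PFC and none was higher. Of the 15936 genes tested, 77.3% passed in either direction (39.3% lower and 38% higher). A pass was therefore common in this comparison, and the size of a difference says more than the call: the median absolute log2 fold change over all genes was 0.3247.

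The mean Nr3c2 level was 18.1 ± 2.04 CPM in PFC, against 30.44 ± 4.42 CPM in NAc (SD, n = 18 each), a log2 fold change of -0.75 ± 0.058 (SE; adjusted p = 4.42e-15, edgeR). All 17 rats with both regions showed that direction, with PFC over NAc ratios of 0.457 to 0.792 and a median of 0.563. The unassigned share was lower in PFC too, and in a fit carrying it the Nr3c2 fold change was -0.91. The mean Fkbp5 level was 47.48 ± 10.7 CPM in PFC, against 83.15 ± 12.5 CPM in NAc, a log2 fold change of -0.81 ± 0.080 (adjusted p = 8.73e-12, edgeR). It too was lower in PFC in 17 of 17 rats, with ratios of 0.49 to 0.694, the highest being rat R4. Sgk1 differed most of the 4, with a mean of 57.56 ± 11.3 CPM in PFC, against 138.1 ± 64.9 CPM in NAc, and a log2 fold change of -1.26 ± 0.17 (adjusted p = 4.15e-08, edgeR), a 2.397-fold lower level in PFC. Its ratios ran from 0.29 to 0.712 in 17 of 17 rats, with a median of 0.497. In the main fit 12.6% of all genes differed at least as much between the regions. Without rat N9, which gave the highest NAc value, the Sgk1 fold change was -1.14. With the animal as a block, over the 17 rats with both regions, it was -1.08 ± 0.086.

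Nr3c1 differed little between the regions. Its mean level was 94.47 ± 5.45 CPM in PFC, against 90.16 ± 5.72 CPM in NAc (n = 18 each), a log2 fold change of 0.065 ± 0.031 with an adjusted p of 0.0509 (edgeR), and was higher in PFC in 12 of 17 rats. With the animal as a block, over the 17 rats with both regions, the fold change was 0.066 and the adjusted p 0.0245 (edgeR). Nr3c1 thus lay close to the threshold, and its call varied with the setting. It also passed unpaired in DESeq2 (adjusted p = 0.035). With the unassigned share as a covariate the fold change was 0.041 (adjusted p = 0.32, edgeR). Without the 4 rats highest in that share it was 0.0349 (adjusted p = 0.378, edgeR). In the main fit the unadjusted 95% normal interval of the difference, 0.0053 to 0.13 on the log2 scale, lay under the median difference of all genes.

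Preference was compared first in PFC. None of the 4 genes passed, where 23.3% of 15128 genes did (11.8% higher and 11.4% lower in risk-seeking rats). The count was 3521 genes, and it was 334 in a fit carrying the unassigned share and 0 in a fit carrying the ambiguous share. Nr3c2 came nearest, at a log2 fold change of -0.15 ± 0.070 (adjusted p = 0.12, edgeR), lower in risk-seeking rats. It was -0.229 without the 4 rats highest in unassigned share, and -0.106 with the ambiguous share as a covariate (adjusted p = 0.805, edgeR). Nr3c1 had 0.042 ± 0.043 (adjusted p = 0.516), Fkbp5 0.010 ± 0.13 (adjusted p = 0.965) and Sgk1 -0.11 ± 0.12 (adjusted p = 0.532). The unadjusted 95% normal interval of Nr3c2 reached from -0.29 to -0.013 and did not include 0 (unadjusted p = 0.0422, edgeR). The other intervals included 0: -0.043 to 0.13 for Nr3c1, -0.24 to 0.26 for Fkbp5 and -0.36 to 0.13 for Sgk1. Differences of any size within these intervals lie within the error. Without rat R4 the Fkbp5 difference was 0.16 (adjusted p = 0.114, edgeR), higher in risk-seeking rats.

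In NAc none of the 4 genes passed, where edgeR called 0% of 15418 genes. At an unadjusted p under 0.05 it counted 2748 genes, limma-voom called 0 and DESeq2 533. The log2 fold change was -0.0044 ± 0.045 for Nr3c1 (adjusted p = 0.97), -0.093 ± 0.088 for Nr3c2 (adjusted p = 0.624), 0.073 ± 0.088 for Fkbp5 (adjusted p = 0.715) and -0.24 ± 0.31 for Sgk1 (adjusted p = 0.726). With the unassigned share as a covariate the NAc difference of Nr3c2 was -0.233 (adjusted p = 0.194, edgeR), and with the ambiguous share it was -0.053. The Sgk1 interval was the widest, from -0.85 to 0.36. Without rat N9 the Sgk1 difference was -0.51 (adjusted p = 0.388, edgeR), and without rat R4 the Fkbp5 difference was 0.17 (adjusted p = 0.182, edgeR).

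Whether the preference difference itself differed between the regions was tested as an interaction, PFC difference minus NAc difference. None of the 4 genes passed and edgeR called 0% of 15936 genes, with 387 at an unadjusted p under 0.05 and 0 called by DESeq2 or limma-voom. The interaction was 0.053 for Nr3c1, -0.051 for Nr3c2, -0.057 for Fkbp5 and 0.14 for Sgk1, with adjusted p from 0.981 to 0.983 (edgeR). The interaction fit treated libraries of the same rat as independent. With the animal as a block, which kept only the 17 rats with both regions, the Sgk1 interaction was 0.40 ± 0.14 (SE). Its unadjusted p was 0.0124 and its adjusted p 0.382 (edgeR), where 0 of 15985 genes were called. With no block but without rat N9 it was 0.403 (adjusted p = 0.941, edgeR). In a limma fit of both regions that treated libraries of the same rat as correlated, none of the 4 passed where 22.3% of 15936 genes did: the log2 fold change was 0.018 ± 0.036 for Nr3c1, -0.11 ± 0.071 for Nr3c2, 0.072 ± 0.077 for Fkbp5 and -0.20 ± 0.18 for Sgk1. Fkbp5 depended on rat R4: without it the difference was 0.16, higher in risk-seeking rats, with an adjusted p of 0.0264 (limma). The Nr3c2 difference varied with the setting: with the unassigned share as a covariate it was -0.24 (adjusted p = 0.0172, limma). Over the alternatives other than leaving out single animals it ranged from -0.24 to -0.058. In exact permutation tests of single genes, over all regroupings of the 18 libraries and two-sided, the lowest adjusted p over 8 tests was 0.571. Leaving out rat R4, the exact tests gave Fkbp5 a p of 0.04229 in PFC (adjusted p = 0.1691) and 0.007363 in NAc (adjusted p = 0.05891). Rat R4 was singled out after its Fkbp5 values were seen. It held the highest risk-averse value in each region, so leaving it out had to raise the difference. The Fkbp5 p-values without rat R4, here and for each region above, therefore cannot serve as a test of preference.

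**Figure D2:**
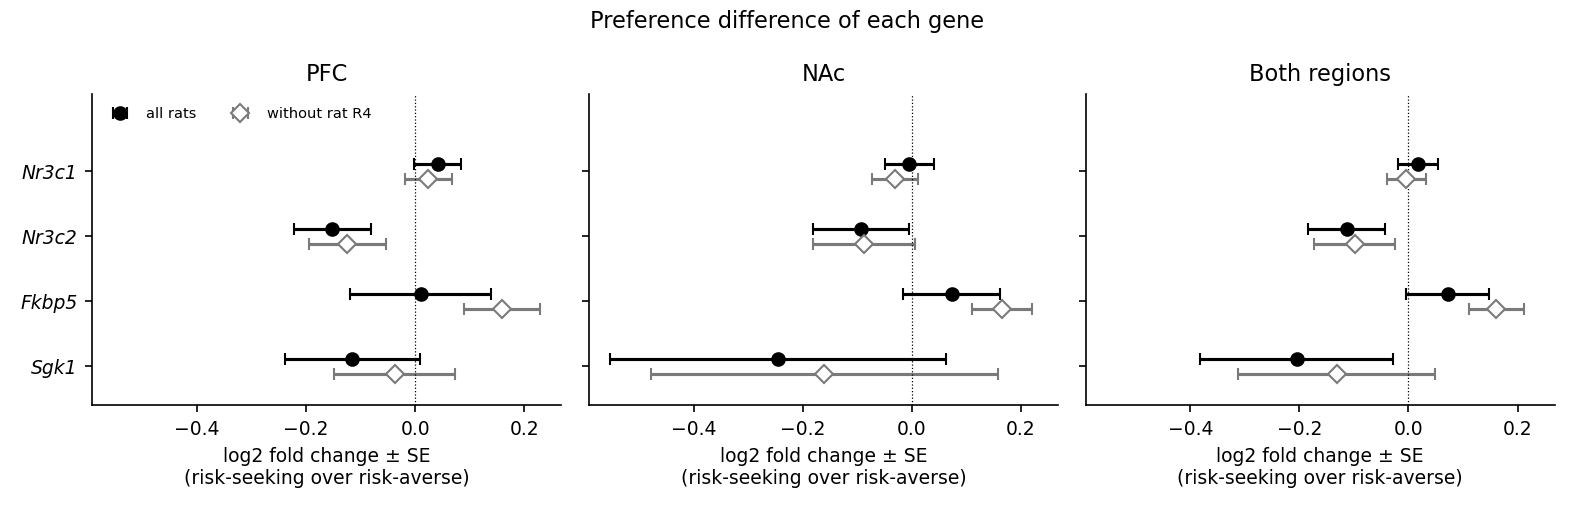
Log2 fold change of risk-seeking over risk-averse rats (horizontal axis) with its standard error for each gene, in PFC, NAc and both regions, for all rats (black circles) and without rat R4 (open diamonds). Fkbp5 lies at 0.010 with all rats and at 0.16 without rat R4 in PFC.

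The question of covariation was whether a rat high in PFC was also high in NAc. Levels were compared over the 17 rats as log2 CPM with preference means removed, with permutation of rats within preference groups and adjustment over 16 relations. Sgk1 followed the rat most closely: Pearson's r was 0.928 and Spearman's rho 0.949 (permutation p = 1e-05, the smallest the permutations can give; adjusted p = 0.00016). It held without the rats farthest from the PFC median, B9 and R4 (r = 0.925), and within risk-seeking (r = 0.965, 8 rats) and risk-averse rats (r = 0.892, 9 rats). Rat N1, for example, had 40.93 CPM in PFC and 66.61 in NAc, whereas rat N7 had 68.08 and 199 CPM. The PFC values of these rats ran from 40.93 to 84.63 CPM and the NAc values over the wider range of 65.9 to 217.9 CPM. Of the 13994 genes compared, 68 had an r at least as high, or 0.486%, and the median r of all genes was 0.46.

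Fkbp5 gave r = 0.893 (permutation p = 0.00214, adjusted p = 0.0171) and rho = 0.667 (adjusted p = 0.0441, permutation). Its r depended strongly on rat R4. Within the 8 risk-seeking rats, which do not include R4, r was 0.787. Within the 9 risk-averse rats it was 0.908, and 0.293 without R4. Without rats BR5 and R4, the farthest from the median, r was 0.434 (adjusted p = 0.346), and without R4 alone r was 0.554 (permutation p = 0.0325, adjusted p = 0.173). Without BR5 alone r was 0.889 (adjusted p = 0.0527, permutation). The share of all genes with an r as high was 1.02% with rat R4 and 37.5% without it. The receptors did not pass: Nr3c1 had r = 0.401 (adjusted p = 0.273, permutation) and Nr3c2 r = 0.269 (adjusted p = 0.547, permutation), both below the median gene. Without rat R4 the r of Nr3c1 was 0.156, and without rat B2 that of Nr3c2 was 0.0347.

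**Figure D3:**
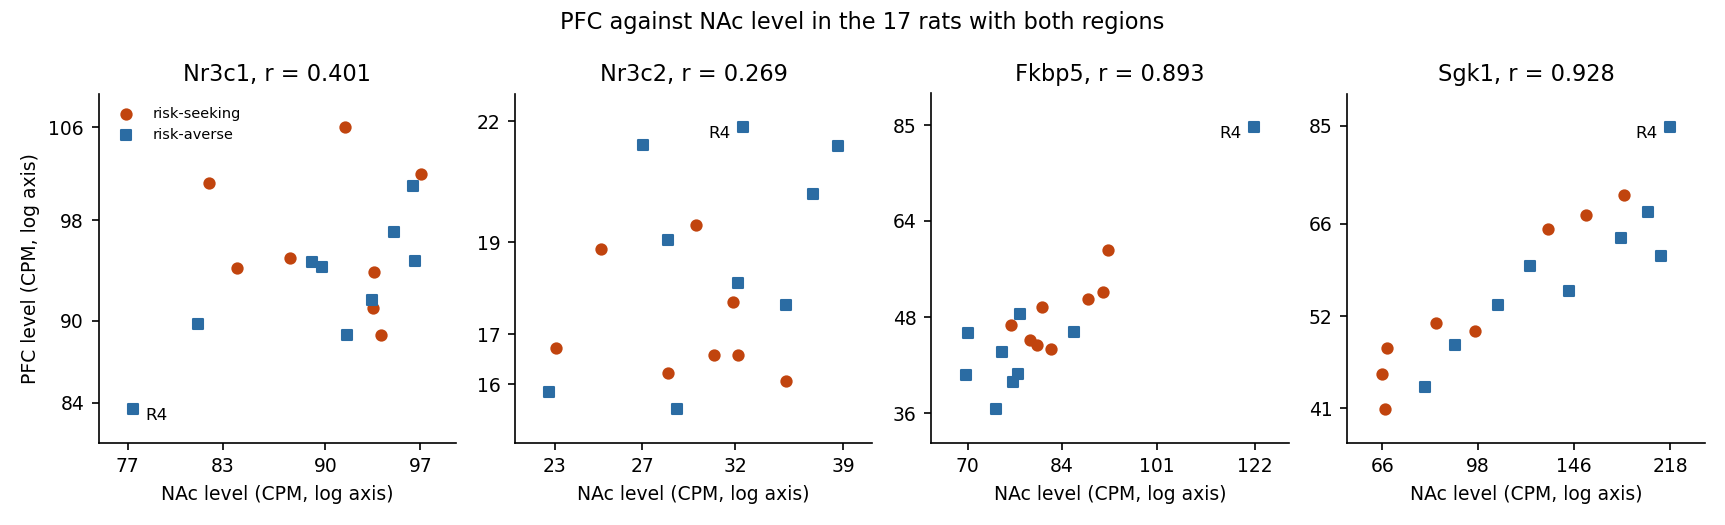
PFC level (vertical axis, CPM, log) against NAc level (horizontal axis, CPM, log) for each of the 17 rats with both regions, coloured by preference. Sgk1 points fall along a line over the whole range of rats, while in the Fkbp5 panel rat R4 lies far from the other rats at 84.54 CPM in PFC and 121.8 CPM in NAc.

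**Figure D4:**
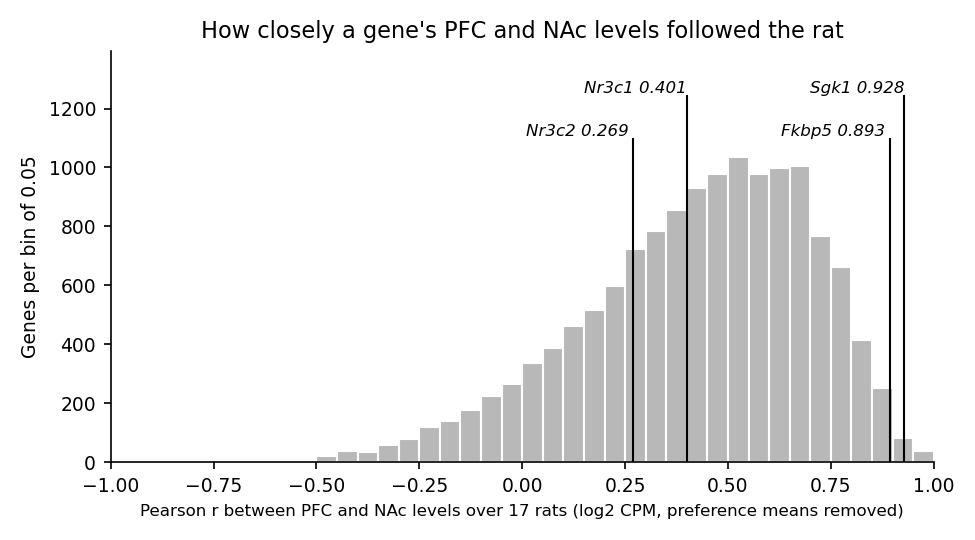
Number of genes (vertical axis) by Pearson r between PFC and NAc levels over 17 rats (horizontal axis), with vertical lines at the 4 genes. Sgk1 at 0.928 and Fkbp5 at 0.893 lie in the right-hand tail, and Nr3c1 at 0.401 and Nr3c2 at 0.269 lie left of the median of 0.46.

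Within a region, none of the 12 pairs of these genes passed, with adjusted p of at least 0.273 by permutation over 18 libraries. The receptor Nr3c1 and its feedback gene Fkbp5 had r = -0.418 in PFC and -0.487 in NAc. Without rat R4, which had the lowest Nr3c1 and the highest Fkbp5 in each region, r was -0.0081 in PFC and 0.0020 in NAc. The hormone-induced pair Fkbp5 and Sgk1 had r = 0.286 in PFC (-0.291 without R4) and 0.314 in NAc (0.194 without R4). The receptors together had r = 0.463 in NAc, 0.637 without R4 (adjusted p = 0.0592, permutation) and 0.633 without B3 and R4, the rats farthest from the median (adjusted p = 0.0402, permutation). No relation differed between risk-seeking and risk-averse rats after adjustment (adjusted p of at least 0.481, exact permutation). The largest gap was Nr3c1 with Sgk1 in PFC, at r = 0.48 in risk-seeking and -0.686 in risk-averse rats (-0.372 in risk-averse rats without R4).

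**Figure D5:**
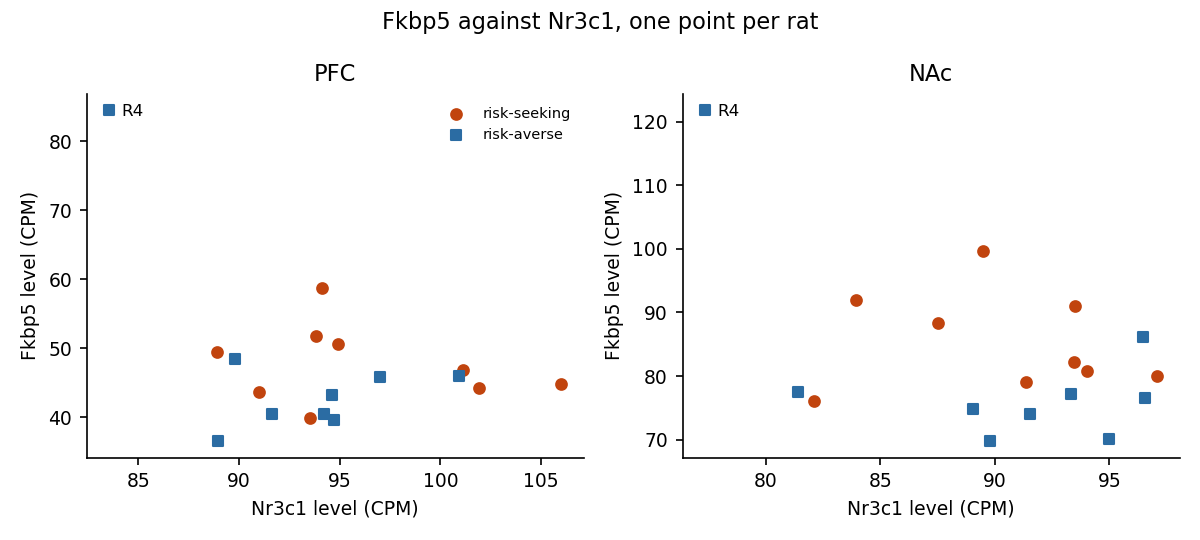
Fkbp5 level against Nr3c1 level in CPM, 1 point per rat, in PFC and NAc. Rat R4 lies at the upper left of each panel, and without it r is -0.0081 in PFC and 0.0020 in NAc.

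Of 24 relations between the genes and the read categories, Nr3c2 in NAc with the unassigned share had r = -0.757 (permutation p = 0.00065, adjusted p = 0.0156) and rho = -0.637 (adjusted p = 0.125). It was similar within risk-seeking (-0.786) and risk-averse rats (-0.791), but without rats B2 and BR5 r was -0.531 (adjusted p = 0.402, permutation). By Pearson's r the other 23 had adjusted p of at least 0.662, and by Spearman's rho of at least 0.125, the lowest being Nr3c1 in NAc with the unassigned share (rho = -0.628, permutation).

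Rat R4 stood apart from the other rats in Fkbp5, while its depth lay within the range of the other libraries. Its libraries held 23174862 gene counts in PFC and 20513202 in NAc, with unassigned shares of 24.6% and 27.1%. Its share of reads aligned to several places was 12.2% in PFC, the lowest of the PFC libraries, and 12.3% in NAc. Its Fkbp5 was 1.44 times the next rat's in PFC and 1.22 times in NAc, and it also had the highest PFC level of Sgk1, at 1.19 times the next rat's, and of Nr3c2, at 1.02 times. In NAc its Sgk1, at 217.9 CPM, was below only that of rat N9, at 297.7 CPM. Its Nr3c2 there, at 32.46 CPM, lay within the range of the other rats. Its Nr3c1 was the lowest in each region, at 83.55 CPM in PFC and 77.35 CPM in NAc. Among 13994 genes, 2647 had the same rat highest in both regions, and 87 of those had a smaller margin at least as large as that of Fkbp5, 7 of them in rat R4. At a margin of 1.3 in both regions rat R4 led in 3 genes, rat B2 in 25 and each other rat in 0 to 2. This comparison was chosen after the Fkbp5 values were seen.

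The genes whose levels moved most like each of these were named by identifier only. For Sgk1 in NAc they were ENSRNOG00000057078 (r = 0.958 over 18 libraries) and ENSRNOG00000009565 (r = 0.938), and ENSRNOG00000057078 also ranked second in PFC (r = 0.811). Of the 100 genes most like Sgk1 in each region, 15 were shared. The gene most like Fkbp5 was ENSRNOG00000018969 in PFC (r = 0.875) and ENSRNOG00000001452 in NAc (r = 0.784), and neither was among the 5 most like it without rat R4. For Fkbp5, 21 of 100 were shared with rat R4 and 1 without it. Nr3c2 in NAc had 720 genes at r of 0.7 or more, led by ENSRNOG00000034200 (r = 0.938), against 10 in PFC. In PFC the gene most like Nr3c2 was ENSRNOG00000012405 (r = 0.778). Nr3c1 had 48 such genes in PFC, led by ENSRNOG00000009690 (r = 0.824), and 124 in NAc, led by ENSRNOG00000014319 (r = 0.851). Without rat R4 the counts were 28 in PFC and 482 in NAc for Nr3c1, and 19 in PFC for Nr3c2. ENSRNOG00000014319 still led in NAc (r = 0.907), whereas the PFC genes named for Nr3c1 and Nr3c2 were no longer among the 5 most like them. These are descriptions over libraries that differed in depth and read categories, and the part of those differences in the likeness was not tested.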

How the data were processed

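Total RNA of PFC and NAc was sequenced as TruSeq libraries, per the labels' protocols. The tools listed per the submitters' processing notes, without their roles, are Trimmomatic, STAR 2.5.3a, HTSeq 0.9.0 and edgeR, and the builds Rnor_6.0 and rn6. Which annotation release and strand setting were used is not given in the sources used, and antisense or overlapping genes may share reads. The authors deposited whole-number read counts for each gene, with no normalization, and HTSeq's summary categories were kept out of library sizes and tests.

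The 4 genes and all gene lists were chosen with earlier results of these data known. After filterByExpr and TMM scaling, tests used edgeR 4.0.16 in R 4.3.3 (robust quasi-likelihood), with Benjamini-Hochberg adjustment over all genes tested and a threshold of 0.05. The fit over both regions used limma 3.58.1 (voom, duplicateCorrelation, consensus 0.395). Covariation used log2 CPM with a prior count of 2 and 100000 permutations. Standard errors of edgeR fold changes were taken from the fold change and its F statistic. The scripts were tested on simulated data. Sample titles pair the regions of 17 rats: a rat's departures from the group means in PFC and in NAc correlated at 0.129 to 0.55 over 13994 genes, and for 16 of 17 NAc libraries the best match was the same rat's PFC library. No library was a repeat deposit of another in its group: the 144 pairs had a chi-square per degree of freedom of 6.62 to 42.2. The genes named as most like each member were taken from the 5 highest Pearson r at a mean of at least 1 CPM. None of the 32623 identifiers matched the gene table at hand, so 16 pathway and marker lists were not analysed here.

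Alternatives were other size factors, no filter, DESeq2 1.42.0, limma-voom, and read categories or the letters of the sample titles as covariates. The animal as a block, which kept only the 17 rats with both regions, was another. The rest left out the 4 animals of highest unassigned share or each animal in turn. Fits without rat R4 of single-gene tests and likeness, and the test of r between preference groups, were added after seeing the data.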

Additional observations from a re-analysis of the deposited data

Results flagged for a closer look

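In the 16 groups of 9 libraries examined (4 genes in 4 groups), 3 held a library far from the others of its group by Dixon's rule on CPM. About 0.8 would be flagged by chance if CPM were normally distributed, which was not tested. The Fkbp5 flags came from the same rat, so the flags are not independent. Fkbp5 of the risk-averse rat R4 was 121.8 CPM in NAc, against 69.75 to 86.06 CPM in the other 8 risk-averse rats. In PFC the same rat had 84.54 CPM, against 36.48 to 48.47 CPM. Sgk1 of the risk-seeking rat N9 was 297.7 CPM in NAc, against 65.9 to 180.1 CPM in the other 8 risk-seeking rats, and this rat has no PFC library here. Its gap was 0.507 of the range, close to the cut.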

How the results depend on the processing

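The lower PFC levels of Nr3c2, Fkbp5 and Sgk1 and the Sgk1 relation between regions kept their direction and their side of the threshold under every alternative run. Nr3c1 between regions passed with RLE factors (0.0656), DESeq2 (0.0650), limma-voom (0.0656) and the animal as a replicate block (0.0656), and ranged from 0.0368 to 0.0739 leaving out each animal, passing in 6 of 19 cases. The block, which kept only the 17 rats with both regions, changed no other call of the 4 genes. In that fit the Fkbp5 interaction was 0.0215. Of the counts of genes called, PFC preference gave 334 with the unassigned share as a covariate, 0 with the ambiguous share, 1 once the 4 rats highest in that unassigned share (all risk-averse) were left out and 2264 to 4227 leaving out each animal, the lowest without rat B3. NAc preference gave 533 in DESeq2 and 0 to 944 leaving out each animal, the highest without rat R9. Both regions together gave 1486, 0 and 7 under the same 3 alternatives. Small preference differences changed sign: with the ambiguous share, Sgk1 in PFC was 0.0868 and Nr3c1 in NAc 0.0016. Without the 4 animals Fkbp5 was -0.103 in PFC, -0.0232 in NAc and -0.0197 over both regions, and Nr3c1 over both regions -0.0034. Nr3c2 over both regions passed with the unassigned share (-0.238), and was -0.0578 in another alternative. Leaving out each animal, Fkbp5 ranged from -0.0324 to 0.160 in PFC and 0.0466 to 0.161 over both regions, and Nr3c1 from -0.0305 to 0.0121 in NAc and -0.0041 to 0.0306 over both regions.

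Among correlations, Fkbp5 with Sgk1 in PFC was -0.115 by Spearman. With the unassigned share regressed out, Nr3c1 with Sgk1 in NAc was 0.0256, Nr3c2 with Sgk1 in NAc 0.129 and Nr3c2 between regions -0.162. With the title letters regressed out, Nr3c2 with Fkbp5 in NAc was -0.0258, while Nr3c1 with Fkbp5 in NAc (-0.7025) and Nr3c1 between regions (0.642) passed. Without the 4 animals Fkbp5 between regions was 0.904 and no longer passed. Leaving out each animal, Fkbp5 between regions ranged from 0.554 to 0.9255, Nr3c1 between regions from 0.156 to 0.542, Nr3c2 between regions from 0.0347 to 0.380, Fkbp5 with Sgk1 in PFC from -0.291 to 0.349, Nr3c1 with Fkbp5 in NAc from -0.6265 to 0.0020, Nr3c1 with Sgk1 from -0.309 to 0.206 in PFC and -0.146 to 0.161 in NAc, and Nr3c2 with Sgk1 from -0.0285 to 0.246 in PFC and -0.0990 to 0.140 in NAc. The cause of these changes was not tested. Counting error was largest beside the spread between rats for Nr3c2 in PFC, at up to 5.14% against a coefficient of variation of 6.91% in risk-seeking and 12.5% in risk-averse rats.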
